A study of Mus musculus with 5 samples.

Results

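CpG island shores, defined here as sparse tiles close to CpG-dense ones, were described in mouse hematopoietic cells that carry dominant negative forms of histone H3.3. The genome was divided into 1 kb tiles, and a tile counted as dense when at least 40 of its CpG positions were listed in any library. A shore was an autosomal tile with 3 to 19 listed CpGs that lay 1 or 2 tiles from a dense tile. It was kept when at least 3 of its CpGs had a second count (explained below) of 10 or more in all 5 libraries. Of 14447 tiles that met the position rule, 6976 were measured and 7471 were not. The measured shores were 5080 tiles at distance 1 and 1896 at distance 2, out of 152678 measured autosomal tiles, and held 48148 measured CpGs. No level was used to choose them. The second count leaves out methylated reads except in K9M replicate 2, however, so the count filter depends partly on methylation.

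The 5 libraries were made by reduced representation bisulfite sequencing, in which MspI fragments of genomic DNA are bisulfite-treated so that methylated cytosines can be told from unmethylated ones. They comprised 1 WT library, 2 K36M libraries and 2 K9M libraries, the mutants being dominant negative H3.3 with methionine in place of lysine 36 or lysine 9. K36M and K9M mice drank water with 2 mg/ml doxycycline, whereas the labels name no doxycycline for WT, so genotype and drug cannot be told apart in comparisons with WT. The labels name no promoter or driver for the mutant histone, and they do not say whether replicates came from separate mice. The p-values rest on counting error alone in most tiles. In the 22.3% of tiles where the moderated spread of these libraries was larger, they rest on that spread, which may be technical. The source is given as HSCs (hematopoietic stem cells), but per the growth protocol the cells were sorted out of peripheral blood. No RNA was measured, so the cell type could not be checked against its markers.

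Most CpGs of the mammalian genome are methylated, while CpG islands, which hold many promoters, usually are not. Shores are the flanks where the unmethylated island gives way to methylated DNA, and their methylation is known to vary between tissues and in blood cancers. Methylation of H3 lysine 36 is found over transcribed gene bodies and intergenic DNA, where the PWWP domains of the methyltransferases DNMT3A and DNMT3B bind it, and H3 lysine 9 methylation marks heterochromatin. Lysine-to-methionine H3 mutants are known to lower methylation of the same lysine on other H3 molecules.

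Sequences of 4 promoters are shown because they lie in dense tiles within 2 tiles of called shores described below. Each is the RefSeq (GRCm38.p6) sequence from 250 bases before to 50 bases after the start, 5′ to 3′ on the gene's strand. Capitals mark the CpGs whose positions were listed in the deposited tables. Each promoter was located on mm9, the build of the tables, by the spacing of its CpGs alone. The letters of the shores themselves were not analysed here.
Ctbp1, chr5:33617604-33617903, minus strand: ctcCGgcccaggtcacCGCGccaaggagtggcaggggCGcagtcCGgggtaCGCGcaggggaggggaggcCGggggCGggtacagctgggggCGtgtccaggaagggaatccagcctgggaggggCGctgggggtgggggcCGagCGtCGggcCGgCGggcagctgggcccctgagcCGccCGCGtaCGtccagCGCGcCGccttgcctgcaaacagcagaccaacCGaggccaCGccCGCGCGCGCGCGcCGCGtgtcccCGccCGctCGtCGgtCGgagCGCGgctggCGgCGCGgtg
Hoxa6, chr6:52158622-52158921, minus strand: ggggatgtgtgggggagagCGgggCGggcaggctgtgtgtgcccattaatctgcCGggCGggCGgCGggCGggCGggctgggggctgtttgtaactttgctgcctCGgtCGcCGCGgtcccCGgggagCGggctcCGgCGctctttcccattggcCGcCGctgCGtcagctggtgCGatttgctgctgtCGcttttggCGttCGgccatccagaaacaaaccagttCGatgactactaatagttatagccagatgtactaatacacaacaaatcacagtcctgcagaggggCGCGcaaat
Klc1, chr12:112996829-112997128, plus strand: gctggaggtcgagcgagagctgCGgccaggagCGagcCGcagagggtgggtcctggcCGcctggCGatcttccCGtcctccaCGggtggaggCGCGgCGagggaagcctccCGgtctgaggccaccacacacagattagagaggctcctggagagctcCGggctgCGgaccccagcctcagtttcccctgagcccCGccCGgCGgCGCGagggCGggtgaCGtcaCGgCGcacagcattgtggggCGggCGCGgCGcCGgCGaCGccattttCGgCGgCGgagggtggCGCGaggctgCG
Gadd45b, chr10:80392586-80392885, plus strand: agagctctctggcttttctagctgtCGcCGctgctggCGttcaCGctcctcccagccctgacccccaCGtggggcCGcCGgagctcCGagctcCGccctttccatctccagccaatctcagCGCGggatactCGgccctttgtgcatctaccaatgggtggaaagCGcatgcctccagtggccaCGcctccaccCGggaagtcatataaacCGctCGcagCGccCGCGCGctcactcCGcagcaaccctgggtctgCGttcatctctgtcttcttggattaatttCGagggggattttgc
All 43 CpGs of the Ctbp1 promoter, all 26 of Hoxa6, all 24 of Gadd45b and 35 of the 37 of Klc1 were listed. Mean relative levels over the promoter were 0.179% to 0.544% for Ctbp1, 0.156% to 0.340% for Klc1 and 0% to 0.321% for Gadd45b across the 5 libraries. At Hoxa6 they were 2.16% in WT, with 1.00% and 1.07% in K36M, and K9M had 5.41% and 4.64%. The shores described for Ctbp1 and Klc1 began 1653 and 922 bases into the gene from its start. That of Gadd45b began 165 bases into the gene and that of Hoxa6 330 bases upstream. CCGG, the palindrome that MspI recognises, lay within 52.8% of the 32851 promoters in the table, and 4, 3, 4 and 2 times in those of Ctbp1, Hoxa6, Klc1 and Gadd45b.

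Levels are given as relative levels, since the deposited fraction of K9M replicate 2 appeared to be on another scale. At 116529 CpGs close to full methylation in that library, WT had a deposited median of 54.3%, the K36M replicates had 53.2% and 55.0%, and K9M replicate 1 had 56.8%. The methylated count was therefore divided by a second count, which is what remains of the total once methylated reads are taken off, and in K9M replicate 2 the total itself. That ratio was divided by a plateau, its median over the most methylated tiles of the same library, at 1.23 for WT, 1.22 and 1.26 for K36M, and 1.37 and 0.954 for K9M. A relative level of 100% is thus the level of highly methylated DNA in that library, single tiles can pass it, and a change shared by the whole genome cannot be seen. Total counts per library ran from 108651379 to 168836289. The lowest was that of K9M replicate 2, whose total appeared to be on another scale, so totals do not compare depth there. The median second count per shore CpG was 35.3 to 45.8 at distance 1 and 31.7 to 39.4 at distance 2.

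Shores were methylated between the level of dense tiles and that of open DNA, and they were lower in both K36M libraries than in WT. At distance 1 the mean relative level was 30.1% in WT, against 28.3% and 28.5% in K36M and 30.1% and 31.0% in K9M. At distance 2 it was 65.6% in WT, with 61.1% and 61.6% in K36M and 65.5% and 68.5% in K9M. K36M therefore lay below every other library at both distances.
The K36M mean was 28.4% ± 0.145 (SD, n = 2) at distance 1 and 61.4% ± 0.418 (SD, n = 2) at distance 2, a difference from WT of -1.69 and -4.24 points. The K9M mean was 30.6% ± 0.647 (SD, n = 2) and 67.0% ± 2.11 (SD, n = 2), or 0.51 and 1.42 points above WT, within 1 SD of WT at both distances. K9M replicate 1 differed from WT by 0.0518 and -0.0726 points. The rise came from K9M replicate 2, at 0.967 and 2.92 points, whose ratio is a share of its total and so less comparable. The difference of K36M from WT exceeded the K36M SD at both distances. WT is a single library, however, and with 2 libraries against 1, or 2 against 2, the smallest p an exact permutation test allows is 0.333.

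**Figure D1:**
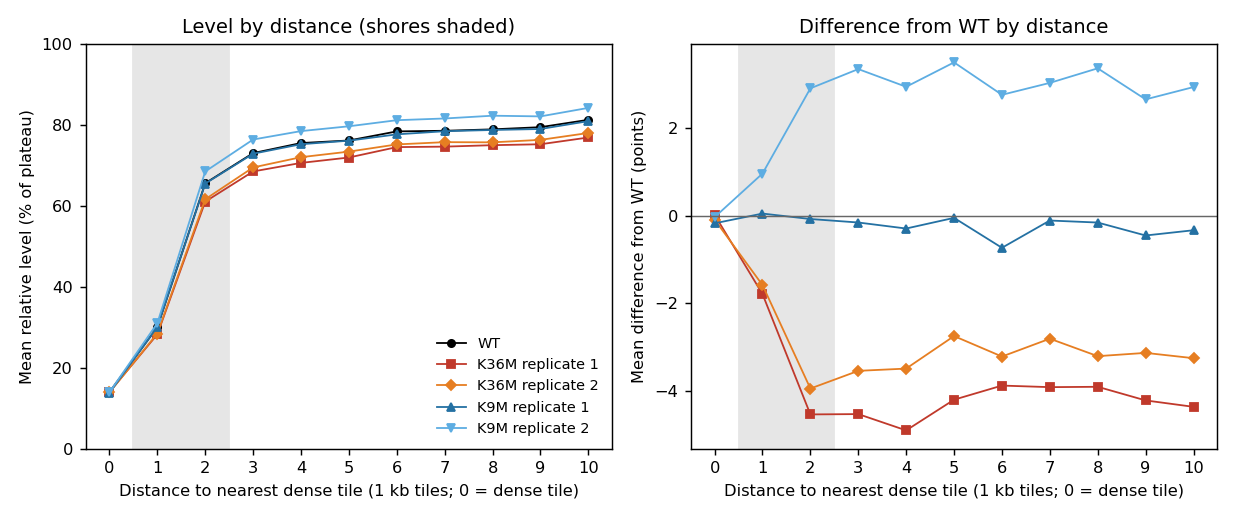
Mean relative level (percent of the library's plateau) of dense tiles (distance 0) and of sparse tiles by distance in 1 kb tiles from the nearest dense tile (left), and the difference of each mutant library from WT in points (right), 1 line per library, shores shaded. Levels climb from 14.0% in dense WT tiles to 65.6% at distance 2, and both K36M libraries lie below WT at each distance from 1 to 10.

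The difference of K36M from WT did not stop at the shore. It was -0.03 points in dense tiles, where WT stood at 14.0%, and -1.69 and -4.24 points at distances 1 and 2. In sparse tiles 3 and 4 tiles away it was -4.04 and -4.20 points, in those 5 to 10 tiles away -3.57, in those 11 to 40 away -3.18 and in those over 40 away -1.95 points. Distance 2 thus sat within the stretch with the largest mean differences, and distance 1 had a smaller one. Over all 152678 tiles the mean difference was -2.02 points. All 19 autosomes had a lower shore mean in K36M, from -1.49 to -3.59 points.

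The median showed how unlike the tiles at distance 1 and distance 2 were. At distance 1 the median level was 6.31% in WT, against 6.07% and 5.58% in K36M and 7.02% and 6.92% in K9M. At distance 2 it was 83.2% in WT, with 76.0% and 77.0% in K36M and 81.6% and 89.9% in K9M. Between 60.9% and 63.4% of tiles at distance 1 were under 20%, depending on the library, and 16.8% to 22.1% were over 80%. At distance 2, 21.6% to 24.0% were under 20%. Shores were therefore mostly unmethylated next to the dense tile and mostly methylated 1 tile further out. Tiles over 80% at distance 2 made up 53.9% in WT, against 42.5% and 46.8% in K36M and 52.6% and 59.9% in K9M. Tiles from 20% to 80% at that distance made up 24.5%, 33.7%, 29.3%, 25.6% and 18.3% in the same order. At distance 2, K36M libraries thus had fewer highly methylated shores and more at intermediate levels than the other 3 libraries. The ratio of K9M replicate 2 is a share of its total and so is bounded. At distance 2 it had 34.9% of tiles from 90% to 100% and 0 at 110% or more. Its shares are therefore less comparable with those of the other libraries. At distance 1 intermediate tiles made up 20.4% and 18.2% in K36M, and K9M replicate 1 lay between them at 19.7%.

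**Figure D2:**
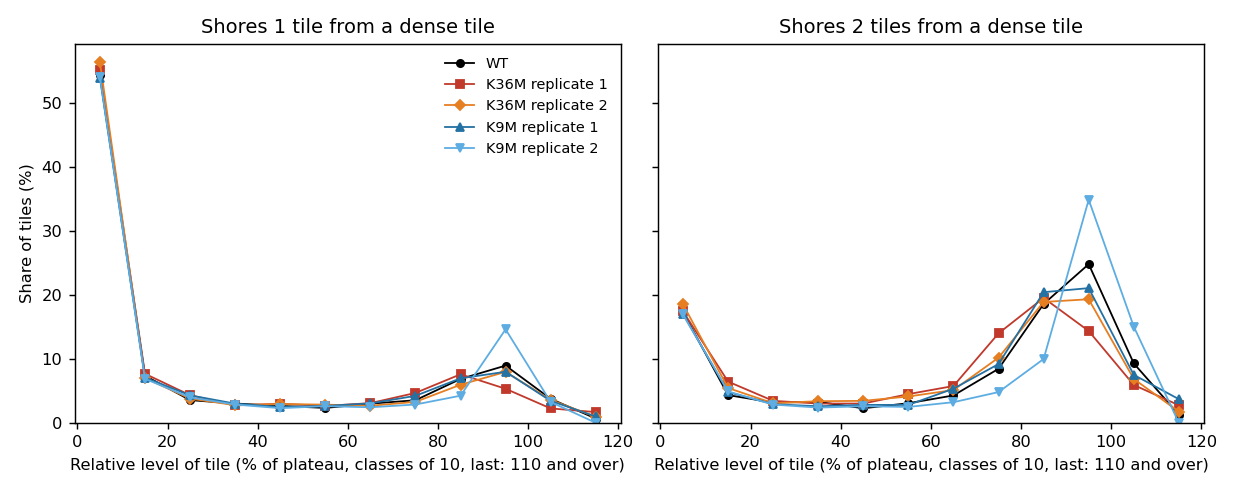
Share of shore tiles (percent) by relative level in each library, with distance 1 and distance 2 in separate panels and all tiles at 110% or more in the last class. Tiles at distance 1 pile up near 0, those at distance 2 near the plateau. At distance 2 the K36M lines hold fewer tiles than the others from 90% to 110%. In the last class they hold more than WT at both distances.

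Tile by tile, K36M was more often below WT than above it. Both K36M libraries were below WT in 38.8% of tiles at distance 1 (1972) and above it in 26.0% (1320). At distance 2 both were below WT in 49.2% (933) and above it in 18.8% (356). For K9M the balance was the other way, with both libraries below WT in 29.1% and above it in 35.9% at distance 1, and 26.1% and 38.3% at distance 2. WT is shared by these counts, so an error in the WT library moves both. Among single CpGs at distance 2, both K36M libraries were below WT at 42.0% and above it at 19.8%, and below both K9M libraries at 30.9%. The median tile differed by -0.11 points at distance 1 and -2.27 points at distance 2, against -0.48 points over all tiles.

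The rise away from the dense tile was measured directly where both tiles on 1 side of it were shores. In 553 such pairs WT went from 31.4% at distance 1 to 65.8% at distance 2. That is a rise of 34.4 points in WT, compared with 31.5 and 32.3 in K36M and 34.5 and 35.8 in K9M. It was therefore smallest in the K36M libraries. The outer tile was higher by at least 10 points in 57.7% to 59.7% of pairs, depending on the library, and lower by at least 10 points in 8.68% to 12.5%. Flanks of 1 dense tile could differ. Among 480 dense tiles with a measured shore 1 tile away on both sides, both shores were under 20% at 187 and both over 80% at 38, while 76 had 1 shore under 20% and the other over 80%.

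The level of the flanked dense tile went with that of its shores. A dense tile under 20%, the usual state of a CpG island, lay beside 6132 shores, one of 20% to 80% beside 185 and one over 80% beside 654, while for 5 shores the dense tile was not measured. Where dense tiles lay on both sides at the same distance, their mean was used. Next to dense tiles under 20%, shores at distance 1 stood at 21.2% in WT, with 19.4% and 19.4% in K36M and 21.5% and 22.2% in K9M. Those at distance 2 stood at 63.7%, 58.9%, 59.7%, 63.7% and 66.7% in the same order. K36M differed from WT by -1.83 and -4.40 points there. Next to dense tiles over 80%, shores at distance 1 stood at 94.1% in WT, against 92.3% and 94.8% in K36M, and K9M had 93.3% and 94.6%. There the K36M libraries fell on either side of WT, at -1.81 and +0.63 points. At distance 2 beside such dense tiles, K36M differed from WT by -2.21 points over 106 tiles.

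Because a tile near 0 has little to lose, shores were also compared within classes of level, with the class set by the K9M mean so that neither WT nor K36M chose it. Intermediate shores, from 20% to 80%, differed from WT by -5.87 points in K36M at distance 1 (912 tiles, -5.68 and -6.05 points per library) and by -7.52 points at distance 2 (375 tiles, -7.31 and -7.73). In sparse tiles of that class more than 2 tiles from a dense tile the difference was -5.57 points (14766 tiles). In shores over 80% the difference was -2.57 points at distance 1 and -4.51 at distance 2, against -2.11 points further away. In shores under 20% it was -0.15 and -0.55 points. The lower K36M level was thus largest in points where the tile was partly methylated. The same comparison of K9M with WT, with the class set by K36M, gave 1.46 points at distance 1 (-0.11 and 3.04 per library) and 2.74 at distance 2 (0.71 and 4.76).

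**Figure D3:**
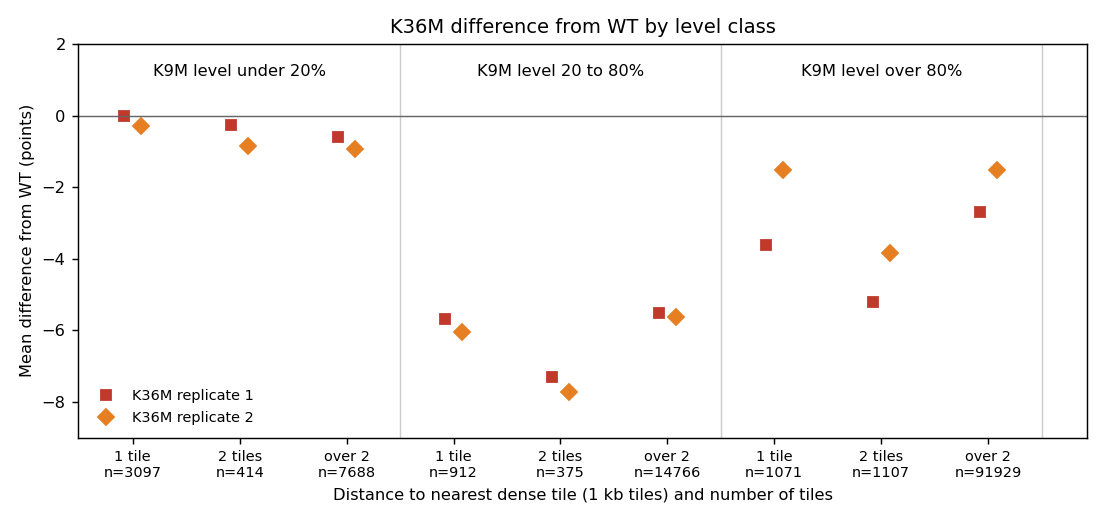
Difference of each K36M library from WT (points of relative level) for tiles under 20%, of 20% to 80% and over 80%, the class being set by the K9M mean, with 1 point per library. Both libraries lie lowest in the intermediate class, at -7.31 and -7.73 points at distance 2.

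The difference was smaller in shores with more CpGs, which were also less methylated. At distance 1, K36M differed from WT by -2.15 points in tiles with 3 to 9 listed CpGs and by -1.35 in those with 10 to 19. The WT means of these tiles were 35.1% and 26.4%, and the effects of CpG number and level were not told apart. At distance 2 the differences were -4.60 and -3.65 points. Tiles more than 2 tiles away showed the same order, at -2.80 and -1.79 points. On either side of the bound of 19 CpGs levels were close. Tiles at distance 1 with 17 to 19 CpGs (774) had a WT mean of 21.7% and those just outside the definition, with 20 to 22 CpGs (720), 21.0%, and K36M differed from WT by -0.75 points in both. The bound of 40 CpGs separated levels more. Shores beside dense tiles of 40 to 44 CpGs (749) had a WT mean of 41.7% and a median of 22.7%, against a mean of 51.1% and a median of 62.8% beside tiles of 35 to 39 CpGs (909), with K36M at -1.85 and -2.05 points from WT.

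Single shores were tested in a logistic model fitted to all 152678 tiles and moderated with limma. A tile was called at a Benjamini-Hochberg adjusted p under 0.05 and at least 10 points between group means. K36M was called lower than WT in 51 shores and higher in 0. The lower calls took 0.731% of shores, against a background of 0.439% of all tiles called lower, and the background for higher calls was 0.0118%. By distance, 29 tiles (0.571%) were called lower at distance 1 and 22 (1.16%) at distance 2, against 0.441% of sparse tiles more than 2 tiles away, 0.855% of those 3 or 4 tiles away and 0.261% of dense tiles. The share at distance 2 was the highest of these and that at distance 1 was near the background. Without adjustment, 14 shores (0.201%) were higher and 318 (4.56%) lower by at least 10 points at p under 0.05. In sparse tiles more than 2 tiles away these shares were 0.321% and 2.76%. The unadjusted counts that follow use the same 10 points.

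K36M was called lower than K9M in 148 shores and higher in 0, against backgrounds of 1.16% and 0.0668%. The lower calls were 86 tiles at distance 1 (1.69%) and 62 at distance 2 (3.27%), compared with 1.20% of sparse tiles more than 2 tiles away and 2.75% of those 3 or 4 tiles away. K9M was called lower than WT in 0 shores and higher in 2, against backgrounds of 0.0242% and 0.0458%. At unadjusted p under 0.05, 18 shores (0.258%) were higher in K36M than in K9M and 454 (6.51%) lower. K9M was lower than WT in 32 (0.459%) and higher in 63 (0.903%). In sparse tiles more than 2 tiles away these shares were 0.515%, 4.19%, 0.614% and 0.844% in the same order. The K9M shares were thus near those of sparse tiles away. Calls were thus almost all of lower levels in K36M.

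The calls depended on few libraries. Leaving 1 out also removes its reads and leaves 1 residual degree of freedom instead of 2. Lost power and replicate spread were therefore not told apart. Shares of all tiles called in these refits are not given, so the counts cannot be set against a background. Without K36M replicate 1 or without K36M replicate 2, 0 shores were called lower than WT, with 275 and 228 at unadjusted p under 0.05. Without K9M replicate 1 or 2, 12 were called each time. Against K9M, 148 calls in all libraries became 7, 1, 33 and 28 without K36M replicate 1, K36M replicate 2, K9M replicate 1 and K9M replicate 2. The 2 calls of higher levels in K9M fell to 0 without any 1 mutant library. limma on the relative levels made 0 calls in all 3 comparisons, with 404 shores lower and 33 higher in K36M than WT at unadjusted p under 0.05.

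The called shores were spread over the genome, and like shores in general they mostly bordered dense tiles of low methylation. The 51 shores called lower than WT lay on 18 chromosomes, and 50 of them flanked a dense tile under 20%, as did 6132 of all 6976 shores. Their mean level was 41.7% in WT, with 15.8% and 15.0% in K36M and 40.2% and 41.0% in K9M, values that come from the contrast that chose them. In 38 of the 51 the K9M mean was within 10 points of WT, in 9 it was at least 10 points below and in 4 at least 10 points above. Of the 148 called against K9M, WT lay between the mutant means in 121, above both in 25 and below both in 2. The comparisons share the K36M libraries, and 42 shores were called in both.

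The 3 largest differences of K36M from WT in points were found in shores with no located promoter. The shore at chr17:46768001-46769000, 2 tiles from a dense tile at 0.393%, was at 97.4% in WT, against 26.8% and 19.6% in K36M and 89.4% and 88.1% in K9M. All 4 of its measured CpGs were lower in both K36M libraries than in the other 3. CpGs of 1 tile are neighbours that can share reads. Their agreement within a called tile, here and below, is therefore not separate support. The difference from WT was -74.2 points (adjusted p = 0.00392, logistic model moderated with limma). The next, at chr1:52174001-52175000, was at 107% in WT, with 45.3% and 51.3% in K36M and 102% and 98.9% in K9M (adjusted p = 0.0211, logistic model moderated with limma). Another, at chr2:26441001-26442000 and directly beside its dense tile, was at 59.6% in WT, against 5.56% and 4.69% in K36M and 41.2% and 46.4% in K9M (adjusted p = 0.00209, logistic model moderated with limma). K36M and the other libraries did not overlap in any of the 3. Separation from WT follows from the choice, since both K36M libraries were below WT in all 51 called shores. Among all shores this held in 38.8% at distance 1 and 49.2% at distance 2. Called shores named below were likewise chosen by the contrast that separates them.

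Of the 51 shores, 13 had a located gene start in a dense tile within 2 tiles, and the difference from WT in points was largest among them at Ctbp1, which encodes a transcriptional co-repressor. Its shore at chr5:33615001-33616000, at distance 2 on the gene side, was at 76.8% in WT (95% Wilson interval of counting error, 64.3% to 91.7%), 25.3% and 25.0% in K36M, and K9M had 74.4% and 81.9%. The difference from WT was -51.6 points (adjusted p = 0.00461, logistic model moderated with limma). The difference was not even along the tile. The CpGs at 33615095 and 33615230 stayed at 79.4% to 89.1% in K36M. The 5 CpGs from 33615721 to 33615985 stood at 0% to 22.7% in K36M and 40.5% to 89.3% in WT. These 5 lay closer to the unmethylated promoter printed above than the other 2.

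Other called shores with a located gene start nearby included those of Map2k3 and Zfhx3. Map2k3, which encodes a kinase that activates p38, shares its dense tile with Map2k3os. Its shore at chr11:60747001-60748000 was at 64.8% in WT, with 22.6% and 20.4% in K36M and 65.6% and 71.4% in K9M (adjusted p = 0.0188 against WT, logistic model moderated with limma). Zfhx3 encodes a zinc finger homeobox transcription factor. Its shore at chr8:111237001-111238000, upstream of the start at distance 1, was at 83.8% in WT, against 45.4% and 41.4% in K36M and 75.0% and 72.4% in K9M (adjusted p = 0.00534 against WT, logistic model moderated with limma). All 11 measured CpGs were lower in both K36M libraries than in WT and in both K9M libraries. Over all shore CpGs at distance 1, both K36M libraries were below WT at 28.9% and below both K9M libraries at 16.6%. The shore of 9630013D21Rik at chr4:109331001-109332000 was at 76.7% in WT, with 31.9% and 31.3% in K36M and 76.4% and 71.6% in K9M. In these shores, which were chosen for a call of K36M against WT, both K36M libraries lay below WT and both K9M libraries.

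Hoxa6 is a homeobox gene of the HoxA cluster, whose members pattern the body axis and act in blood progenitors. Its upstream shore at chr6:52159001-52160000 was at 37.8% in WT, against 15.8% and 11.1% in K36M and 41.7% and 53.4% in K9M (adjusted p = 0.0199 against WT, logistic model moderated with limma). All 5 CpGs followed that order of K36M below WT, and the dense tile level at that distance was 16.8%. Gadd45b, which encodes a stress-induced protein linked to DNA demethylation and repair, had 2 called shores in succession. The tile beside its dense tile, chr10:80393001-80394000, was at 18.7% in WT, with 2.81% and 0.523% in K36M, and K9M had 25.9% and 30.5%. Only 3 of its CpGs were measured. They were at 3.68%, 31.2% and 5.17% in WT, so the difference rests mainly on 1 CpG. The next tile, chr10:80394001-80395000, was at 17.1% in WT, against 4.69% and 3.14% in K36M and 10.8% and 19.1% in K9M. Adjusted p against WT was 0.0238 and 0.036 (logistic model moderated with limma). K36M was the lowest group in both tiles.

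Klc1 and Ckap4 differed in where K9M stood. At Klc1, which encodes a kinesin light chain, the shore at chr12:112998001-112999000 was at 24.9% in WT, with 4.67% and 6.31% in K36M and 43.7% and 45.2% in K9M. K36M differed by -19.4 points from WT and -38.9 from K9M (adjusted p = 0.0124 and 0.000258, logistic model moderated with limma), and WT lay between the mutants at 5 of 5 CpGs. At Ckap4, which encodes a membrane protein of the endoplasmic reticulum, the shore at chr10:83995001-83996000 was at 40.4% in WT, against 19.6% and 17.3% in K36M and 18.8% and 20.1% in K9M. K36M was called against WT (adjusted p = 0.0217, logistic model moderated with limma), whereas K9M, at similar levels, was not (adjusted p = 0.100, same model moderated with limma). At Zfp3, a zinc finger gene, the shore was at 15.5% in WT, with 0.418% and 2.00% in K36M and 8.39% and 12.1% in K9M (adjusted p = 0.0217, logistic model moderated with limma).

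**Figure D4:**
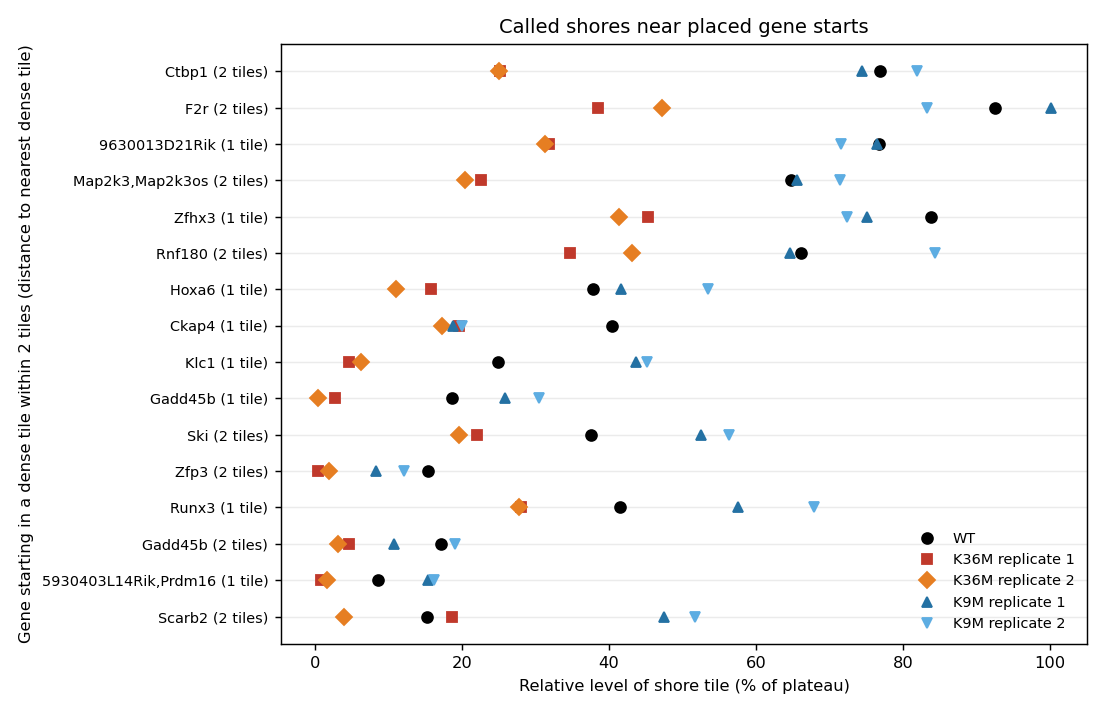
Relative level (percent of the plateau) of the called shores within 2 tiles of a dense tile with a located gene start that are named in the text, with the distance to the nearest dense tile after each gene, 1 point per library. The K36M points lie below WT in each shore but that of Scarb2, and at Ckap4 the K9M points are as low as those of K36M.

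Calls of K36M against K9M added shores where WT was intermediate. The largest of them, at chr3:30411001-30412000, was at 36.3% in WT, against 5.67% and 11.1% in K36M and 74.2% and 70.3% in K9M (adjusted p = 0.00447, logistic model moderated with limma). Runx3 encodes a Runt transcription factor of T cells and other blood lineages. Its shore at chr4:134710001-134711000 was at 41.5% in WT, with 28.0% and 27.8% in K36M and 57.6% and 67.9% in K9M (adjusted p = 0.0141, logistic model moderated with limma). Ski, which encodes a repressor of TGF-beta signalling, had a shore at 37.6% in WT, against 22.1% and 19.6% in K36M and 52.5% and 56.4% in K9M (adjusted p = 0.00583, logistic model moderated with limma). F2r, which encodes a thrombin receptor, had one at 92.5% in WT, with 38.6% and 47.3% in K36M and 100.1% and 83.2% in K9M. Runx3 and Ski had WT between the mutants, whereas at F2r WT was as high as K9M.
The shores of Scarb2 and Rnf180 were also called. That of Scarb2, which encodes a lysosomal membrane protein, was at 15.3% in WT, against 18.7% and 3.97% in K36M and 47.5% and 51.7% in K9M. That of Rnf180, which encodes a ubiquitin ligase, was at 66.1% in WT, with 34.7% and 43.2% in K36M and 64.6% and 84.4% in K9M. WT fell among the K36M libraries at Scarb2 and among the K9M libraries at Rnf180.

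The 2 shores called higher in K9M than in WT had no located gene. The one at chr4:142801001-142802000 was at 3.48% in WT, against 4.77% and 7.04% in K36M and 31.6% and 46.0% in K9M (adjusted p = 0.00322, logistic model moderated with limma). The one at chr10:5634001-5635000 was at 8.37% in WT, with 5.18% and 4.80% in K36M and 29.6% and 30.3% in K9M (adjusted p = 0.0325, logistic model moderated with limma). Both K9M libraries were above the other 3 in each.

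Shores could be placed relative to a gene start where the promoter was located. Of 31396 promoters on autosomes in the RefSeq table, 13800 had the 10 or more CpGs needed and 5964 were placed. Dense tiles with a located start numbered 3653, and 2392 shores lay within 2 tiles of one, 961 on the gene side of the start and 982 on the upstream side where the side was unambiguous. At distance 1, gene-side shores (719) stood at 21.1% in WT, against 19.1% and 19.3% in K36M and 20.9% and 22.1% in K9M, and upstream shores (729) at 20.2%, 18.6%, 18.4%, 20.2% and 21.1%. K36M differed from WT by -1.87 and -1.71 points on these sides. At distance 2, gene-side shores (242) stood at 68.2% in WT, with 61.7% and 62.3% in K36M and 67.8% and 70.5% in K9M, and upstream shores (253) at 65.2%, 60.8%, 61.7%, 64.4% and 68.4%. K36M differed from WT by -6.21 points on the gene side (-6.53 and -5.89 per library) and -3.92 on the upstream side (-4.37 and -3.47). The libraries did not overlap between the sides at distance 2, but the same WT library enters all 4 values and the difference between sides was not tested.
The gap between sides was widest in intermediate shores at distance 2, where the K36M libraries differed from WT by -9.06 and -11.6 points on the gene side (54 tiles) and by -5.60 and -5.44 on the upstream side (50 tiles). K36M was called lower than WT in 3 of 719 gene-side and 5 of 729 upstream shores at distance 1. At distance 2 it was in 3 of 242 and 0 of 253, against 0.439% of all tiles, too few calls to compare the sides. Calls of K36M lower than K9M numbered 9 of 719 and 12 of 729 at distance 1. At distance 2 they numbered 13 of 242 on the gene side and 3 of 253 upstream, against 1.16% of all tiles. The difference between sides was not tested.

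**Figure D5:**
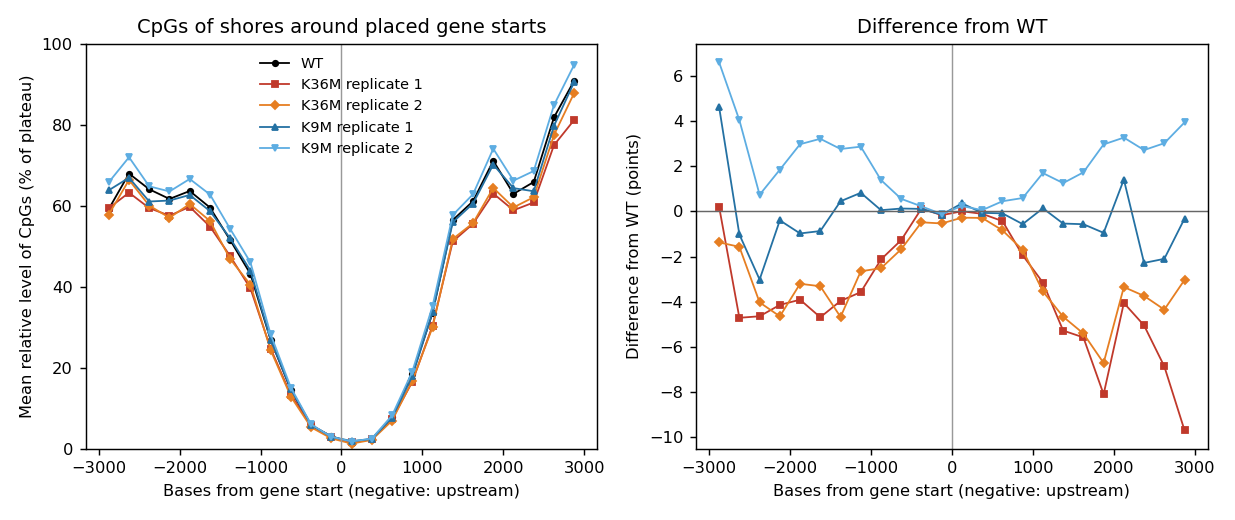
Mean relative level (percent of the plateau) of shore CpGs in bins of 250 bases by distance from the located gene start, negative values upstream and positive values in the gene (left), and the difference of each mutant library from WT in points (right), 1 line per library. All lines are lowest just inside the gene and climb on both sides, and both K36M lines run below WT outward of 1 kb except in the outermost upstream bin, which holds 21 CpGs.

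The profile around gene starts followed the same steps. Shore CpGs centred 125 bases into the gene were at 1.27% to 1.91% in the 5 libraries. Those centred 1375 bases into the gene were at 56.5% in WT, against 51.2% and 51.8% in K36M and 56.0% and 57.8% in K9M. Those centred 1875 bases into the gene were at 71.2% in WT, with 63.1% and 64.4% in K36M and 70.2% and 74.1% in K9M, and those 1875 bases upstream at 63.7%, 59.8%, 60.5%, 62.7% and 66.7%. K36M was the lowest group at both of these distances. Each bin holds the CpGs of few tiles, 111 and 115 in the last pair, and its CpGs are not independent.

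Genes of 4 lists, of blood regulators, DNA methylation, H3 lysine 36 and 9 methylation and Polycomb, had few measured shores. Of 43 blood stem cell and lineage regulators, 12 were located, 6 had shores and the shores numbered 10. K36M was called lower than WT in 0 of them, with a median difference of -2.07 points against -0.48 over all tiles, and lower than K9M in 1. Over all tiles 0.439% and 1.16% were called in these comparisons, so 10 shores are too few to set against them. That shore, at chr4:154008001-154009000, lay directly beside a dense tile and 1982 bases inside the gene from the start of Prdm16, a zinc finger gene needed for blood stem cell maintenance. The start of 5930403L14Rik was also in a dense tile within 2 tiles. It held 19 measured CpGs and was at 8.59% in WT, against 0.864% and 1.68% in K36M and 15.4% and 16.2% in K9M. K36M differed by -14.6 points from K9M (adjusted p = 6.74e-05, logistic model moderated with limma) and by -7.31 points from WT, short of the 10 points a call needed, with an adjusted p of 0.00314 (logistic model moderated with limma). All 19 CpGs were lower in both K36M libraries than in both K9M libraries, and 16 of them lower than in WT. Over all shore CpGs at distance 1 these shares were 16.6% and 28.9%.

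Shores of the other genes on this list were not called. Tcf3 encodes an E protein of B cell development. Its shore at chr10:79894001-79895000 was at 37.5% in WT, with 26.1% and 22.5% in K36M and 56.1% and 49.8% in K9M, and that at chr10:79898001-79899000 was at 61.1% in WT, against 47.4% and 47.9% in K36M and 53.6% and 57.5% in K9M. K36M was below the other libraries in both without passing the test. A further Tcf3 shore, at chr10:79895001-79896000, was near 0 in every library, at 0.254% in WT, with 1.15% and 0.454% in K36M and 0.262% and 0.284% in K9M. Cebpb, a myeloid transcription factor, had a shore at distance 1 at 62.2% in WT, with 68.7% and 52.4% in K36M and 65.3% and 69.7% in K9M, with the K36M libraries on either side of WT. At Runx1, a regulator of blood stem cell formation, the shore was at 99.8% in WT, against 100.1% and 98.3% in K36M and 91.4% and 94.3% in K9M. Shores thus ranged from fully methylated to unmethylated within this list, the Hlf shore being at 0% in WT and K36M and at 1.87% and 1.36% in K9M.

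Of 10 DNA methylation genes 1 had a shore, of 26 genes of H3 lysine 36 and 9 methylation 2 had 1 each, and of 12 Polycomb genes 1 had 3, and 0 of these 6 were called in any comparison. The Uhrf1 shore, beside the gene of a cofactor of maintenance methylation, was at 34.9% in WT, with 34.1% and 24.9% in K36M, and K9M had 30.3% and 31.0%. The 3 shores of Ring1, which encodes a Polycomb ubiquitin ligase, were at 103%, 93.0% and 53.8% in WT. The shore at 93.0% was at 85.0% and 85.6% in K36M and 98.2% and 100.6% in K9M, and the last of them at 42.5% and 37.9% in K36M and 44.7% and 51.5% in K9M, and neither passed the test. Setdb2, a gene of the H3 lysine 9 methyltransferase family, had a shore below 1% in every library, and that of Ehmt1, which encodes an H3 lysine 9 methyltransferase, was at 75.6% in WT, with 74.9% and 88.9% in K36M and 71.2% and 99.6% in K9M.

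Typical shores, taken at the 10th, 50th and 90th percentile of level, showed no common direction. At distance 1 the shore of Nxn, at the 10th percentile, was at 0% in WT, against 0% and 0.657% in K36M, and K9M had 0.639% and 0.509%. The median shore at distance 1, at chr4:42749001-42750000, was at 8.18% in WT, with 8.81% and 5.44% in K36M, and K9M had 6.56% and 4.07%. The median shore at distance 2, at chr10:76720001-76721000, was at 73.7% in WT, against 86.5% and 71.8% in K36M and 91.7% and 90.8% in K9M. At distance 2 the 10th percentile shore, of Ppp1r18, was at 2.91% in WT, with 6.86% and 2.68% in K36M, and K9M had 2.24% and 2.15%. The 90th percentile shores, at chr2:17051001-17052000 (distance 1) and chr7:25321001-25322000 (distance 2), were at 93.2% and 97.2% in WT. In K36M the first was at 85.6% and 98.7% and the second at 90.6% and 95.1%. Among these 6 shores, both K36M libraries were below WT in that last one alone.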

How the data were processed

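Reduced representation bisulfite libraries from 5 samples were analysed. Per the submitters' processing notes, cutadapt, BSMAP and the mm9 build were used, with no settings recorded in the sources at hand. The deposited tables give, per CpG position, a methylation fraction and a total count made by the authors. The methylated count was the product of both, rounded. Every library had to reach a second count of 10 at a CpG, and a tile needed 3 such CpGs. The plateau used the top 20% of tiles by mean rank.

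Tiles were fitted with a logistic model on 3 groups (2 residual degrees of freedom, log plateau as offset). Its quasi-binomial dispersion was moderated with limma 3.58.1 in R 4.3.3 and held at 1 or above, followed by an F test and Benjamini-Hochberg adjustment over 152678 tiles. The dispersion exceeded the floor in 22.3% of tiles. The WT library, without a replicate, is taken to vary as the mutants do, and reads shared by CpGs are not modelled. The model was also run on simulated data with the same spread in every library. Such data cannot speak to the unreplicated WT or to the scale of K9M replicate 2. Intervals cover counting error only, and read deduplication is not described in the sources at hand.

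RefSeq promoters (GRCm38.p6) were located on mm9 positions where at least 90% of 10 or more CpGs were listed at a single offset. Of 13800, 5964 were placed, 37 had more than 1 offset and 7799 none, and 5962 followed the order of the table.

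Named shores were the 5 called tiles with the largest difference per comparison and direction, the 10 with a located promoter, shores of listed genes with a call or among the 3 of their list with the largest difference, and percentile tiles. Cebpb, Runx1 and Hlf were added after their values were seen. Members and lists were chosen with earlier results of these data known. Alternatives were the plateau, coverage minimum, dense tile bound, CpG number, deposited levels, pooled counts, limma, the replicate block and each mutant library left out.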

Additional observations from a re-analysis of the deposited data

How the results depend on the processing

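K36M remained lower than WT in mean shore level at both distances under every alternative run for it, and sizes varied. Beside dense tiles over 80% the difference was -0.85 points, within the SD, and it was 0.296 with the 40% plateau and 0.083 without K36M replicate 1. With a plateau from the top 40% of tiles the difference was -1.37 points at distance 1, -3.58 at distance 2, -2.23 beside dense tiles under 20% and -5.90 in the class of 20% to 80%, and 1 shore was called higher in K9M than WT. A coverage minimum of 20 gave -1.54 at distance 1, -2.24 beside dense tiles under 20% and -6.63 in the class of 20% to 80%. A minimum of 5 gave 33 calls of K36M below WT and 1 of K9M above WT. With dense tiles of 30 or more CpGs, distance 2 gave -3.75 points, and 2 shores were called lower in K9M than WT and 3 higher in K36M than K9M. Shores with 10 to 19 CpGs gave -1.35 and -3.65 points, -1.87 beside dense tiles under 20%, a rise of 32.6 points between distances and 33 and 86 lower calls. Pooled counts gave -1.27 at distance 1 and -3.52 at distance 2 for K36M against WT, and -1.24 at distance 1 against K9M.

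Deposited levels, on unequal scales, gave -0.82, 5.59 and -6.41 points at distance 1 (K36M against WT, K9M against WT, K36M against K9M), -1.73, 13.8 and -15.5 at distance 2, -1.96, 16.1 and -17.7 in the class of 20% to 80%, -1.15 beside dense tiles under 20% and a rise of 23.1 points. They gave 0, 0 and 0 calls and left no dense tile over 80%. limma on relative levels also gave 0 calls. Leaving out 1 mutant library gave 0 to 12 calls of K36M below WT, 1 to 33 below K9M and 0 of K9M above WT. Same-numbered mutant libraries correlated at 0.08 in their deviations, and with the replicate block, where no number was shown to mark a pair, 0 calls were made (227 shores lower by at least 10 points in K36M than WT at unadjusted p under 0.05).

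Of 28 calls of named shores, all 28 lost significance under limma, deposited levels, the replicate block and without either K36M library, while 19 lost it without K9M replicate 1 and 20 without K9M replicate 2. At a coverage minimum of 5, 5 were lost, and 2 with the 40% plateau. The call of the Prdm16 shore against K9M was not among the 28, nor were some calls of the same shores in another comparison. The causes were not tested. Depth limits tiles with few CpGs, and a single WT library limits each comparison with WT.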
